A study of Mus musculus with 10 samples.

Results

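Crx, Nrl, Nr2e3, Otx2, Rorb, Thrb, Rxrg and Neurod1 encode transcription factors that direct retinal precursors to become rods and cones and keep those cells in their fate. They were chosen by gene symbol: every probe of the array that the platform annotation gives a single symbol from these 8 genes. Of the 8, 6 had such a probe, with 1 probe each (of 33012 probes and 13840 named genes on the array), while Nr2e3 and Rorb were matched to no probe and were not analysed here. The measured RNA came from adult mouse retina, a pool of 350 C57/B6 mice run on 5 single-channel Applied Biosystems arrays, and from the cortex of mice at postnatal day 1 (P1), a pool of 19 mice run on 5 arrays. The cortex was the comparison RNA of a study of microarray platforms. The labels give its mice as C57/B6 in one place and as Swiss-Webster in another, and the titles of the retina arrays carry the letters P1 although the retina is described as adult. Tissue, age and possibly strain therefore cannot be told apart. The 5 arrays of a tissue are repeats of 1 pool, so each p-value below measures the spread between arrays and not between animals.

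In the developing retina the homeobox factor OTX2 acts early and switches on its relative CRX, which drives a large set of photoreceptor genes in both rods and cones. NRL, a leucine zipper factor of the MAF family, and its target NR2E3, an orphan nuclear receptor, commit precursors to the rod fate and hold cone genes down. The nuclear receptors THRB and RXRG act in cones, where they set which opsin a cone makes, RORB acts upstream of NRL, and the basic helix-loop-helix (bHLH) factor NEUROD1 is needed to maintain photoreceptors. Several of these genes are also used elsewhere: Otx2 in bipolar cells, retinal pigment epithelium and choroid plexus, Rxrg and Neurod1 in brain neurons and Thrb in many tissues.

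As deposited, the arrays had median intensities of 836 to 987 for retina, against 1255 to 1341 for cortex. Their log2 medians were 9.80 ± 0.11 for retina, against 10.34 ± 0.04 for cortex (SD, n = 5), and differed by -0.54 (exact 2-sided permutation p = 0.00794, the smallest that 252 assignments can give). Quantile normalization, which gives all arrays 1 distribution, removes this difference, and the values below are quantile-normalized log2 intensities unless stated otherwise. A probe was called when limma's Benjamini-Hochberg adjusted p over all 33012 probes was under 0.05 and the difference, always retina minus cortex, was at least 2-fold (1 on the log2 scale). By that rule 12.1% of all probes were called higher and 13.3% lower in retina, and in 40.5% of all probes the 5 values of one tissue lay entirely above those of the other. Of all calls, 47.6% were higher in retina, and without normalization 24.5% were. The files carry no detection flag, so 747 probes named for olfactory receptors, genes of the nose, served as a rough yardstick for dim signal. Their 95th percentile was 10.74, and since probes differ in how brightly they report a transcript, it marks a dim range and not a detection limit. A gene is described as dim in a tissue where its mean there lay below this value.

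Of the 6 measured fate factor genes, 5 were called, all 5 higher in retina, and Rxrg was not called. Of all probes 25.4% were called in either direction and 12.1% higher. Their median difference was 4.44 on the log2 scale, whereas the median over all probes was -0.0052. The 5 retina values and the 5 cortex values did not overlap for any of the 6 genes, against 40.5% of all probes. Nrl differed most, and 22 of the 33012 probes (0.0666%) had a larger difference toward retina. That number was 91 probes (0.276%) for Crx, 179 (0.542%) for Otx2, 422 (1.28%) for Neurod1 and 1256 (3.80%) for Thrb. Rxrg lay on the other side of 0.

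**Figure D1:**
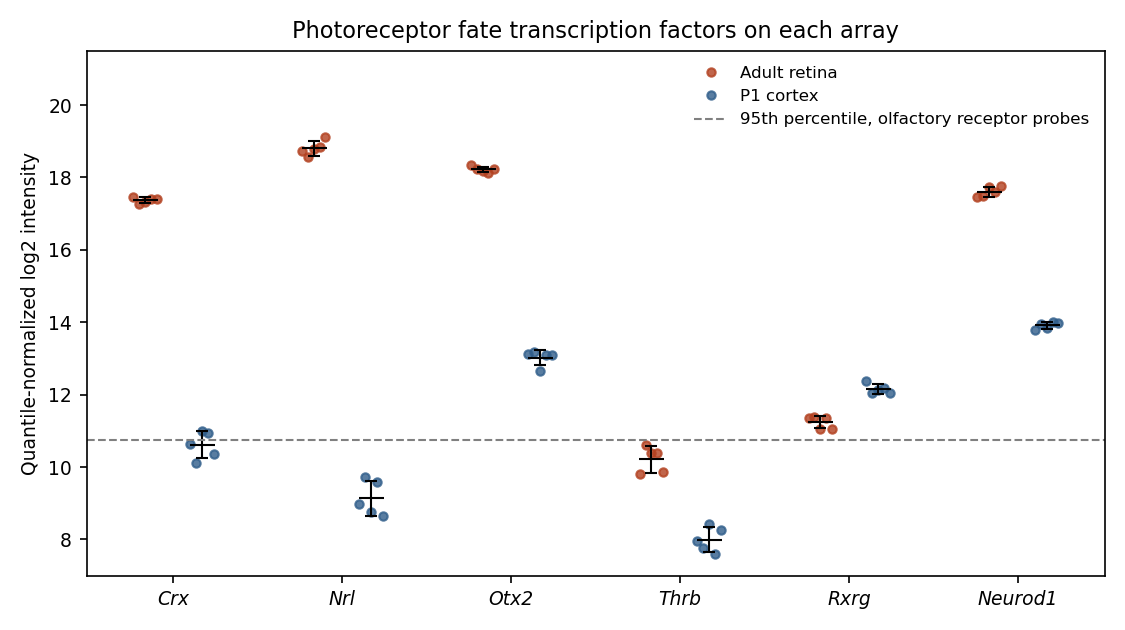
Quantile-normalized log2 intensity (vertical axis) of the 6 measured fate factor genes on each array, with adult retina left of P1 cortex for each gene, the mean and SD over 5 arrays as bars, and the dim yardstick (10.74, from olfactory receptor probes) as a dashed line. Retina lies above cortex for Crx, Nrl, Otx2, Thrb and Neurod1 and below it for Rxrg, and both tissues lie below the dashed line for Thrb.

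The stretches of 250 bases upstream of annotated start sites are shown for the 5 genes called higher in retina. They are given because these factors are known to act on each other's genes. The sequences come from RefSeq on mouse build GRCm38.p6, are written 5′ to 3′ on the strand of the gene and end at the base before the start. Capitals mark matches on either strand to TAATCC, the core bound by CRX and OTX2, to TGCTGA, a half-site of NRL, to AGGTCA, a nuclear receptor half-site, and to CAGATG, an E-box bound by NEUROD1. For Otx2 and Thrb, which have several annotated starts, the window with a TAATCC match is shown. The array probe may report transcripts from any of their starts.
Crx, chr7:15879956-15880205, minus strand: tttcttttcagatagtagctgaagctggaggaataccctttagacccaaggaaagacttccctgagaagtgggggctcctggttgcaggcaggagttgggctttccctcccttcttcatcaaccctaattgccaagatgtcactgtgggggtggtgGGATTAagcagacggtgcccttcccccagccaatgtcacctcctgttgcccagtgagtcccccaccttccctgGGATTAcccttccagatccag
Otx2, chr14:48665110-48665359, minus strand: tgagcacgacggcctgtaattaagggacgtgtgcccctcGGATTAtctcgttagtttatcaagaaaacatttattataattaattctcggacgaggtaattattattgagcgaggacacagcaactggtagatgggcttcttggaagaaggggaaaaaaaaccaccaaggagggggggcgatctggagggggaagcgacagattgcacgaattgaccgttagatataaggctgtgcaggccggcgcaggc
Nrl, chr14:55524253-55524502, minus strand: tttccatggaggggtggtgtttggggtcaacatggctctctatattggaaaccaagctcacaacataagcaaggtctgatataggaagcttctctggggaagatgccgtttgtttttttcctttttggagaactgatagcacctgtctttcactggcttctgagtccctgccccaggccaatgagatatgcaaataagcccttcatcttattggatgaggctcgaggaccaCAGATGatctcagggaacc
Neurod1, chr2:79456637-79456886, minus strand: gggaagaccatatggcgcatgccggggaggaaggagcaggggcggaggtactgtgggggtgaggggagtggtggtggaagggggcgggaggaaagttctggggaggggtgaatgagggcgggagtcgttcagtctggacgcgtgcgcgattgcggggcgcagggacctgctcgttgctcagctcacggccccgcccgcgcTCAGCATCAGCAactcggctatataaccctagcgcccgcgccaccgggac
Thrb, chr14:17660710-17660959, plus strand: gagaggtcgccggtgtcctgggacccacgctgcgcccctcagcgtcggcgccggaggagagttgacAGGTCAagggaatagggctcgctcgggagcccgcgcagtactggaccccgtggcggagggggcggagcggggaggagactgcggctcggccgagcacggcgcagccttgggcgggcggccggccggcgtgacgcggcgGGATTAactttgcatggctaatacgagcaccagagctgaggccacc

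Each match is a description of letters and not a site shown to be bound. The Crx window held TAATCC 2 times on the reverse strand, beginning 94 and 21 bases before the start. The shown Otx2 window held it once, beginning 211 bases before the start, and the Thrb window once, beginning 46 bases before the start. In all, 3 of the 8 fate factor genes had TAATCC in at least 1 window, and 1949 of the 27025 genes of the promoter table (7.21%) did. The Neurod1 window held the NRL half-site 2 times side by side, beginning 50 and 44 bases before the start, and this half-site was present for 3 of the 8 genes and for 18.02% of all genes. AGGTCA was found for 2 of the 8 genes, Thrb and Rxrg, and for 15.76% of all genes. CAGATG was found for 2 of the 8, Nrl and Otx2, and for 16.31% of all genes. The Nrl match began 19 bases before the start. The gene with the most windows, Otx2, has 4 and so had more chances of a match. Among 13 measured rod genes with an entry in the promoter table, 6 had TAATCC and 5 had the NRL half-site, and among 6 such cone genes 1 had each of these.

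The homeobox genes Crx and Otx2 were both far higher in retina. Crx was at 17.46, 17.27, 17.33, 17.40 and 17.41 on retina arrays 1 to 5, against 10.64, 10.12, 10.99, 10.94 and 10.36 on cortex arrays 1 to 5. The retina values lay within a narrow band, whereas the cortex values were spread on both sides of the dim yardstick. The difference was 6.76 (SE 0.13, 95% interval 6.49 to 7.04, limma with Benjamini-Hochberg adjusted p = 8.82e-17), which is 109-fold. Set against the yardstick in place of the dimmer cortex mean, retina was 99.5-fold higher. In the deposited intensities, Crx was at 133625 to 161669 in retina and at 1298 to 2458 in cortex.

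Otx2 was at 18.33, 18.23, 18.18, 18.12 and 18.23 on the retina arrays, against 13.11, 13.17, 12.65, 13.10 and 13.09 on the cortex arrays. Unlike Crx, it lay above the yardstick on every cortex array, by 2.29 on average. The difference was 5.20 (SE 0.081, 95% interval 5.02 to 5.37, limma adjusted p = 8.25e-18), or 36.7-fold. Its cortex spread (SD 0.21) exceeded that of 96.5% of the 200 probes nearest to it in cortex brightness, and cortex array 3, at 12.65, stood below the other 4 cortex arrays. The third gene of the family, Otx1, which is known from forebrain development, was lower in retina, at 11.09 ± 0.24, than in cortex, at 12.21 ± 0.19 (SD, n = 5), and differed by -1.11 (limma adjusted p = 2e-06).

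Otx2 has other sources than photoreceptors, and genes listed as markers of those sources differed between the tissues as well. Whether each listed gene marks only those cells in these tissues was not tested. For scale, 12.1% of all probes were called higher and 13.3% lower in retina. All 6 measured bipolar cell markers were higher in retina, with summed intensities of 738330 to 850909 over the retina arrays and 8168 to 11656 over the cortex arrays. The differences were 8.11 for Cabp5, 7.52 for Scgn, 6.84 for Lrtm1, 6.60 for Grm6, the glutamate receptor gene of ON bipolar cells, and 5.85 for Pcp2. Of these, only Pcp2 was not dim in cortex. Of 7 pigment epithelium markers, 5 were higher and 2 were not called, with sums of 65856 to 73335 in retina and 1809 to 3030 in cortex. Rpe65, the visual cycle isomerase of the pigment epithelium, was at 14.58 ± 0.14 in retina, against 7.77 ± 0.40 in cortex (SD, n = 5), and Rrh (5.86), Dct (5.21), Tyrp1 (4.23) and Pmel (2.14) were the other 4 called higher. Tyr, Pmel and Best1 were dim in both tissues, and Rpe65, Rrh, Dct and Tyrp1 were dim in cortex. Of 7 choroid plexus markers, 5 were higher, 1 was lower and 1 not called, and the sums were 636472 to 656373 in retina and 849132 to 986275 in cortex. The 5 were Aqp1 (4.79), Kcne2 (4.39), Folr1 (1.67), Clic6 (1.29) and Kl (1.01). Kl was dim in both tissues, and Clic6, dim in cortex, had values that overlapped between them. The number higher was 3 without normalization, where Kl (0.48) and Clic6 (0.76) lost their calls, and also without cortex array 3 (0.86 and 0.99). Kl was also not called with an offset before the log (0.84), without retina array 2 (0.99) or without retina array 5 (0.89). Neither was called against a 1.5-fold minimum (treat, limma adjusted p = 0.254 for Kl and 0.146 for Clic6). Ttr (transthyretin), which the choroid plexus makes in bulk, was the lower one, at 18.34 ± 0.05 in retina, against 19.73 ± 0.08 in cortex. No probe of any kind was at 0 on any array, so a value above 0 does not show that a marker was present. The part of these cells in the Otx2 values was not tested, and in bulk RNA fewer cells of a type and less RNA per cell cannot be told apart.

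Nrl, the rod determinant, had the largest difference of the 6 genes. It was at 18.72, 18.57, 18.78, 18.83 and 19.11 on the retina arrays, against 8.98, 9.72, 8.77, 9.59 and 8.64 on the cortex arrays. All cortex values lay in the dim range, and 18.2% of the olfactory receptor probes were brighter there. The difference was 9.66 (SE 0.17, 95% interval 9.29 to 10.03, limma adjusted p = 4.11e-17), or 811-fold. Set against the yardstick in place of its cortex mean, the excess in retina was 268-fold, so the size of the difference rests in part on dim cortex signal. Repeat retina arrays varied more for Nrl than for Crx or Otx2, with an SD of 0.20, above that of 92.0% of the 200 probes nearest to it in retina brightness.

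The relatives of Nrl were mixed. Of 4 measured MAF genes, Mafa, a large MAF gene also known from pancreatic beta cells, was higher in retina, at 11.55 ± 0.24 against 8.46 ± 0.88 in cortex (SD, n = 5, limma adjusted p = 9.29e-07). The cortex mean was dim and includes array 3 at 9.98, while the other 4 were at 7.89 to 8.43. The small MAF genes, which lack an activation domain, were not called: Mafg at 0.03, Maff at -0.59 and Mafk at -0.53. Without normalization Maff (-1.05) and Mafk (-1.07) were called lower, and the sign of Mafg turned (-0.35).

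Neurod1 lay above the yardstick in both tissues and was higher in retina. It was at 17.45, 17.48, 17.75, 17.59 and 17.75 on the retina arrays, against 13.80, 13.94, 13.84, 14.01 and 13.97 on the cortex arrays. The lowest retina array lay 3.44 above the highest cortex array. The retina SD of 0.15 exceeded that of 78.6% of the 200 probes nearest in retina brightness, and the cortex SD of 0.089 that of 54.7% of those nearest in cortex brightness. The difference was 3.69 (SE 0.066, 95% interval 3.55 to 3.83, limma adjusted p = 3.98e-17), or 12.9-fold. In cortex Neurod1 lay 3.17 above the yardstick, so both means were outside the dim range.

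Genes related to Neurod1 fell into opposite directions. Of 8 measured bHLH relatives, 2 were higher in retina, 3 were lower and 3 were not called, against 12.1% higher and 13.3% lower of all probes. Neurod4, a factor of bipolar and amacrine cells, was at 16.39 ± 0.09 in retina, against 8.83 ± 0.76 in cortex (SD, n = 5), and differed by 7.56. Bhlhe23, a gene of rod bipolar cells, followed at 5.36. Neurod4 and Bhlhe23 were dim in cortex, so these sizes rest in part on dim signal. Toward cortex, Neurod6, a gene of cortical pyramidal neurons, was at 10.03 ± 0.47 in retina, which is dim, against 17.79 ± 0.07 in cortex (-7.76). Neurod2, its relative in the same neurons, was at -2.91. The third, Neurog1, was at -1.01 and its call did not hold with array median centring (-0.99), cyclic loess (-0.94), an offset before the log (-0.92), a 1.5-fold minimum (treat, limma adjusted p = 0.0742) or without any one of retina arrays 2, 3 and 4 and cortex arrays 4 and 5 (-0.99 to -0.92).

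Markers of brain regions, pituitary, pineal gland, and amacrine and horizontal cells were measured beside Neurod1. For scale, 12.1% of all probes were called higher and 13.3% lower in retina. Of 6 cortical neuron markers 4 were lower in retina, with summed intensities of 18784 to 21488 in retina and 502163 to 524716 in cortex. The 4 were Neurod6, Bcl11b (-5.93), Tbr1 (-4.92) and Fezf2 (-1.87), all genes of cortical projection neurons. Neurod6 and Bcl11b were dim in retina. Of 6 cerebellar granule cell markers, 3 were lower and 1 was higher, with sums of 12981 to 19492 in retina and 81410 to 97839 in cortex. The higher one, Zic2 (1.38), was dim in cortex, had values that overlapped between the tissues, and was not called without normalization (0.87). Zic1 (-4.31) and Cbln1 (-2.37) were lower, as was Barhl1 (-1.17), which was dim in both tissues, with values that overlapped between them. Barhl1 was not called against a 1.5-fold minimum, with an offset before the log (-0.85), or without any one of retina arrays 1, 3 and 5 and cortex arrays 1, 3 and 4 (-1.14 to -0.99), where 2 markers were lower. Gabra6, a defining gene of mature granule cells, was dim in both tissues. All 3 thalamus markers were lower, with sums of 3564 to 4412 in retina and 16991 to 18589 in cortex. They were Lef1 (-3.68), Lhx9 (-1.97) and Gbx2 (-1.81), of which Lef1 and Gbx2 were dim in retina. Of 6 pituitary markers, 3 were lower, with sums of 4469 to 6248 in retina and 50856 to 57501 in cortex, and Gh, the growth hormone gene, was at 7.21 ± 0.49 in retina, against 15.36 ± 0.08 in cortex. Cga (-4.07) and Pomc (-2.35), also pituitary hormone genes, were the others called lower. Gh, Cga and Pomc were dim in retina. All 6 amacrine and horizontal cell markers were higher in retina, with sums of 268970 to 291508 in retina and 33125 to 37496 in cortex. Chat (3.63), Tfap2b (3.56), Calb2 (2.97), Slc6a9 (2.82) and Lhx1 (1.48) differed most. Chat was dim in cortex. Lhx1 was dim in both tissues, with values that overlapped between them, and was not called without normalization (0.96), where 5 markers were higher. Of the 2 measured pineal markers, Gch1 was called lower (-1.01). Gch1 was dim in retina, with values that overlapped between the tissues, and its call did not hold without any 1 of 8 arrays. The difference was then -1.02 to -0.74, with limma adjusted p = 0.0621 to 0.107. The Gch1 call was also lost with array median centring (-0.97), cyclic loess (-0.90) and an offset before the log (-0.87). It was lost as well without the intensity trend (limma adjusted p = 0.0988) and against a 1.5-fold minimum (treat, limma adjusted p = 0.446). Tph1 was not called (-0.91). What these cells contribute to the Neurod1 values was not tested.

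Of the cone receptor genes, Thrb was called higher in retina and Rxrg was not called. Thrb was at 9.80, 10.62, 10.40, 10.38 and 9.85 on the retina arrays, against 7.94, 7.76, 8.42, 7.59 and 8.27 on the cortex arrays. The groups did not overlap, but all 10 values lay below the yardstick of 10.74. In retina 7.36% of the olfactory receptor probes were brighter than Thrb, and in cortex 66.3% were. The difference was 2.21 (SE 0.31, 95% interval 1.56 to 2.87, limma adjusted p = 9.15e-06), or 4.64-fold, from signal as dim as that. Which of the Thrb transcript forms the probe reports was not analysed here.

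Rxrg was lower in retina on every array, but short of the 2-fold minimum. It was at 11.35, 11.38, 11.05, 11.36 and 11.05 on the retina arrays, against 12.39, 12.04, 12.12, 12.18 and 12.05 on the cortex arrays. The groups lay 0.67 apart at their nearest values. The difference was -0.92 (SE 0.11, 95% interval -1.16 to -0.68, limma adjusted p = 2.64e-06). Against a minimum of 1.5-fold it passed limma's treat test (adjusted p = 0.0221). Without normalization it was -1.37 and was called, but the median of all probes stood at -0.41 there, and relative to that median Rxrg was at -0.96.

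Relatives in the nuclear receptor families lay on both sides of 0. Thra, the other thyroid hormone receptor gene, was lower in retina, at 15.32 ± 0.09 against 16.85 ± 0.08 in cortex (SD, n = 5), and differed by -1.53 (limma adjusted p = 2.04e-13), opposite in sign to Thrb. Rxrb was at 0.23 and was not called, and at -0.15 without normalization. Rora, the relative of Rorb and a receptor known from cerebellum and retina, was at 15.87 ± 0.04 in retina, against 12.59 ± 0.15 in cortex, and differed by 3.29 (SE 0.066, limma adjusted p = 1.58e-16). Of 3 measured relatives of Nr2e3, Nr2f1, a regulator of cortical area patterning, was lower (-2.75), as was Nr2f2 (-1.07, or -0.93 and no longer called with array median centring), and Nr2e1, a gene of neural stem cells, was not called (0.33). Over all 19 measured relatives of the 8 fate factors, 4 were higher, 7 were lower and 8 were not called, and their median was -0.37. Among all probes, 12.1% were higher and 13.3% lower.

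**Figure D2:**
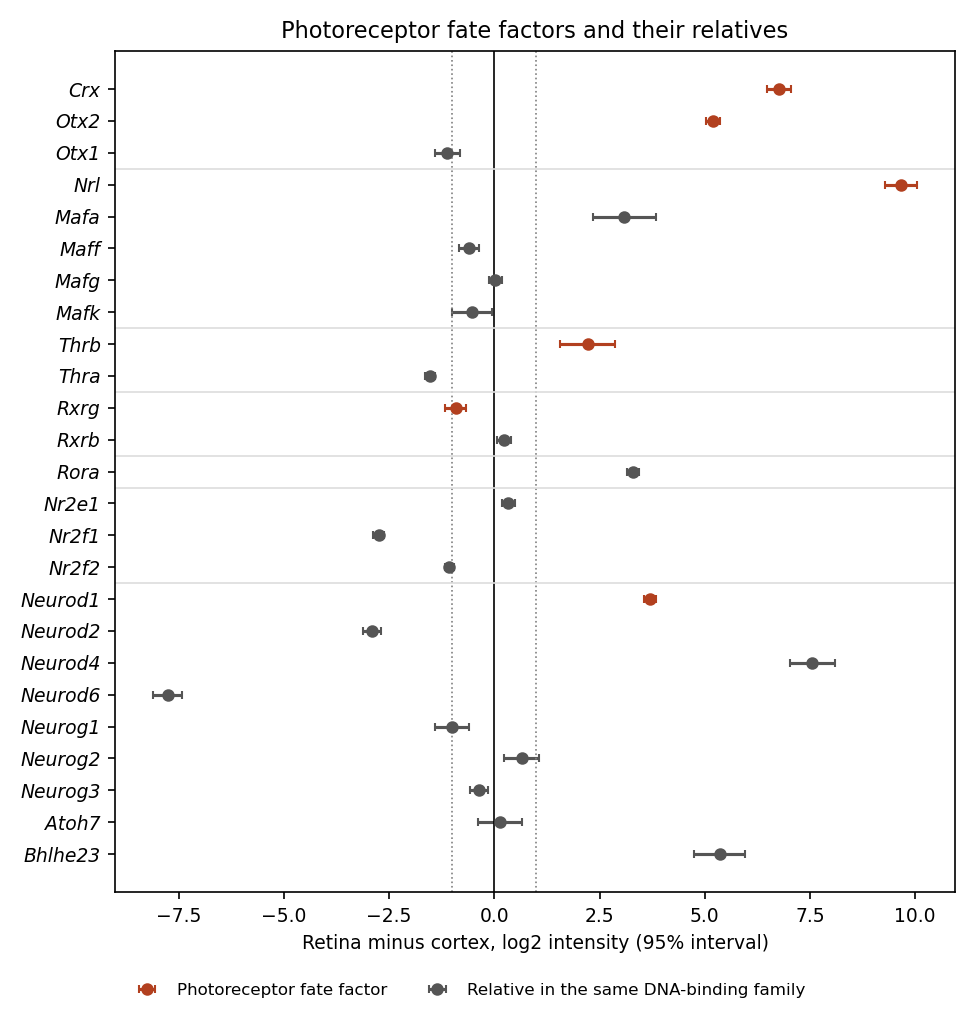
Difference between retina and cortex in log2 intensity (horizontal axis, 95% interval as bars) for the 6 fate factor genes (red) and 19 relatives (grey), ordered by DNA-binding family with lines between families and dotted lines at the 2-fold minimum. Nrl at 9.66 and Crx at 6.76 lie far to the right of Mafa at 3.09 and Otx1 at -1.11, Thrb and Thra lie on opposite sides of 0, and the bHLH genes run from Neurod6 at -7.76 to Neurod4 at 7.56. Nrl, Crx, Mafa and Neurod4 were dim in cortex, Neurod6 was dim in retina and Thrb was dim in both.

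The 6 genes differed from each other in how far retina exceeded cortex. The log2 ratio of 2 fate factor genes on the same array does not depend on the scaling of that array, and it was taken from the deposited intensities for all 15 pairs. In all 15 pairs the 5 retina ratios and the 5 cortex ratios did not overlap. Each of the 6 genes alone was already without overlap, as were 40.5% of all probes, and ratios of other gene pairs were not taken. Crx, Nrl and Thrb were dim in cortex, so every pair that holds any of them rests in part on dim signal. Otx2 over Neurod1 ran from 0.39 to 0.81 in retina, against -1.19 to -0.69 in cortex. Crx over Otx2 ran from -0.92 to -0.68 in retina, against -2.99 to -1.61 in cortex, and the cortex side rests on dim Crx signal. Even for the least different pair, Otx2 and Neurod1, the mean ratio differed by 1.47 between the tissues. The 15 pairs share 6 genes and are not independent.

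Other transcripts came close to the pattern of single fate factors over the 10 arrays. Likeness was measured as the root mean square distance between values centred on each probe's mean, over 8964 named probes brighter than the median of all values. Nearest to Nrl were Fabp12 (distance 0.22), Gnat2, the cone transducin alpha subunit gene (0.30), and Gnat1, its rod counterpart (0.31). Nearest to Crx were Prom1, a gene of photoreceptor disc membranes (0.21), Crygs, a crystallin gene (0.21), and Klc3 (0.25). Otx2 had Rtbdn, Ccdc126 and Unc119 closest (0.13 to 0.17), and Neurod1 had Tfap2b, a factor of amacrine cells, Mylk and H2bc4 (0.10 to 0.11). The genes closest to Rxrg were Dcun1d5, Kdm1a and Gabbr1 (0.10 to 0.11) and those closest to Thrb were Dusp10, Spg20 and Pdk2 (0.26). With 2 tissues, this likeness mostly reflects the size of the difference between them.

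Genes that these factors are known to control were higher in retina almost throughout. Of 16 measured rod genes, 15 were higher, against 12.1% of all probes, 1 was lower, and the median difference was 10.29. Pdc (11.57), Gngt1 (11.19), Rbp3 (10.98), Prph2 (10.84) and Pde6b (10.80) had the largest differences. Their cortex means lay between 8.17 and 9.86, in the dim range, so the order among rod genes rests on dim cortex signal and is not read as a ranking. The exception was Mef2c, a MADS-box factor gene used in photoreceptors and in cortical neurons, at 14.52 ± 0.18 in retina, against 17.27 ± 0.11 in cortex (SD, n = 5), and differed by -2.76 (SE 0.076, limma adjusted p = 8.48e-15). All 10 measured cone genes were higher, with a median of 6.66. Gnat2 (9.60), Opn1sw (9.53), Pde6c (7.68), Arr3 (7.47) and Opn1mw (7.09), genes of cone phototransduction, had the largest differences, again against dim cortex means. The opsin genes on which Thrb and Rxrg are known to act, Opn1sw and Opn1mw, are both among them (SE 0.20 and 0.15). Gnb3, the cone transducin beta gene, lay in the dim range in retina and cortex alike (1.36) and was not called without normalization (0.93). Against a 1.5-fold minimum Gnb3 was not called either (treat, limma adjusted p = 0.0838).

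**Figure D3:**
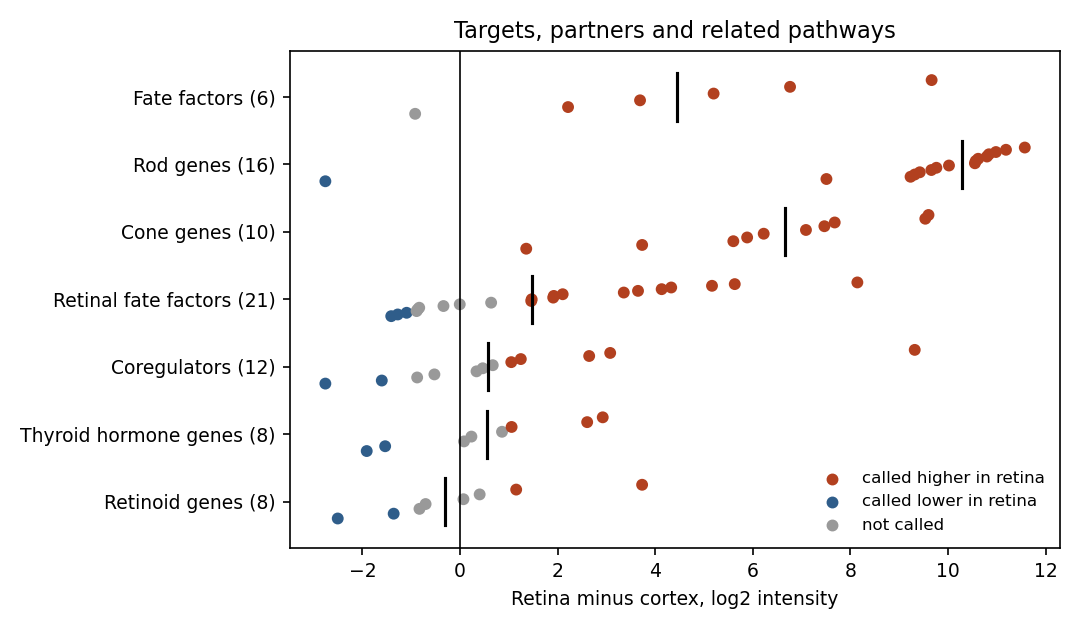
Difference between retina and cortex in log2 intensity (horizontal axis) for each gene of the fate factor set and of 6 related lists, with the number of measured genes in brackets, the median as a black bar, and colour for the call. Rod genes centre on 10.29 and cone genes on 6.66, to the right of the fate factors at 4.44, while coregulators, thyroid hormone genes and retinoid genes lie on both sides of 0.

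Partners of the factors were divided. Of 12 measured coregulators and partners of CRX, NRL and NR2E3, 5 were higher in retina, 2 were lower and 5 were not called, and their median was 0.57. Among all probes, 12.1% were higher and 13.3% lower. Samd7, a polycomb-associated repressor of photoreceptors, was at 17.60 ± 0.10 in retina, against 8.28 ± 0.62 in cortex (SD, n = 5), and differed by 9.32. Kat2b, an acetyltransferase gene, was higher by 3.08 and Pias3, which encodes the SUMO ligase that modifies NR2E3, by 2.65. Samd7, Kat2b and Pias3 were dim in cortex. Sp4 (1.25) and Nr1d1 (1.05), genes of factors that act with CRX and with NR2E3, lost their calls without normalization (0.86 and 0.66), where 3 were higher, and Nr1d1 also without cortex array 5 (1.00). Banf1 (-1.60) and Mef2c were lower.

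Genes that act before or beside the fate factors were higher more often than lower. Of 21 measured genes of retinal cell fate, 12 were higher, 3 were lower and 6 were not called, against 12.1% higher and 13.3% lower of all probes. Their median was 1.47, and without normalization 12 were higher and 6 lower. Rax, the eye field homeobox gene that also acts on photoreceptor genes, was at 15.77 ± 0.11 in retina, against 7.63 ± 0.35 in cortex (SD, n = 5), and differed by 8.14. Six6 (5.63), Vsx1 (5.16), Pax6 (4.33) and Tbx2 (4.13), genes of eye field, bipolar cell, progenitor and S-cone factors, followed. Rax, Six6, Vsx1 and Tbx2 were dim in cortex. Prdm1, which keeps photoreceptor precursors from the bipolar fate, was at 3.65 (an example chosen after its value was seen). Lhx2 (-1.41) and the Notch effector gene Hes5 (-1.27) were lower. Notch1 (-1.09) was dim on average in retina and cortex alike, with values that overlapped between them. Its call was lost with an offset before the log (-0.86), without the intensity trend (limma adjusted p = 0.0522) and against a 1.5-fold minimum (treat, limma adjusted p = 0.355). Nor was Notch1 called without any one of retina arrays 2 and 3 and cortex arrays 1 and 5 (limma adjusted p = 0.0743 to 0.101). The difference was then -0.82 without retina array 2, -0.87 without cortex array 5 and -0.98 without retina array 3.

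Genes of the thyroid hormone and retinoid pathways, in which THRB and RXRG act, were read at the RNA level only. No hormone or retinoid level was measured. Of all probes, 12.1% were higher and 13.3% lower. Of 8 thyroid hormone genes, 3 were higher, 2 were lower and 3 were not called, and their median was 0.55. Hr (hairless), a target and corepressor of thyroid hormone receptors, was higher by 2.93 (SE 0.22) and Thrsp, a hormone-responsive gene, by 2.61 (SE 0.080). Hr was dim in cortex. Dio2, the gene of the deiodinase that activates the hormone, was dim in cortex and higher in retina by 1.06. Its call did not hold without normalization (0.54), with an offset before the log (0.95), without retina array 2 (0.99) or without cortex array 3 (0.96). Against a 1.5-fold minimum Dio2 was not called either (treat, limma adjusted p = 0.0604). The transporter gene Slco1c1 was lower (-1.91), as was Thra. Of 8 retinoid genes, 2 were higher, 2 were lower and 4 were not called, and their median was -0.32. Aldh1a1, a retinoic acid synthesis gene, was at 16.05 ± 0.07 in retina, against 12.32 ± 0.12 in cortex (SD, n = 5), and differed by 3.73, whereas Cyp26b1, which encodes an enzyme that degrades retinoic acid, was lower by -2.50. Rarb was dim in cortex and higher in retina by 1.15, but not called without normalization (0.65) or without cortex array 3 (0.95). Aldh1a2 (-1.36) was dim in both tissues. Neither was called against a 1.5-fold minimum (treat, limma adjusted p = 0.0859 for Rarb and 0.0700 for Aldh1a2). Without normalization 1 retinoid gene was higher and 4 were lower.

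The direction of each fate factor was the same under all alternatives run. Crx ranged from 6.27 to 6.81 over the other processing choices and from 6.64 to 6.86 on leaving out single arrays. Nrl ranged from 9.10 to 9.66 and from 9.54 to 9.80, and Otx2 from 4.73 to 5.26 and from 5.09 to 5.23. For Neurod1 the ranges were 3.26 to 3.80 and 3.66 to 3.73. Thrb moved from 1.69, with an offset before the log, to 2.32, and between 2.10 and 2.35 on leaving out single arrays. No single array decided the call of any of the 6 genes.

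**Figure D4:**
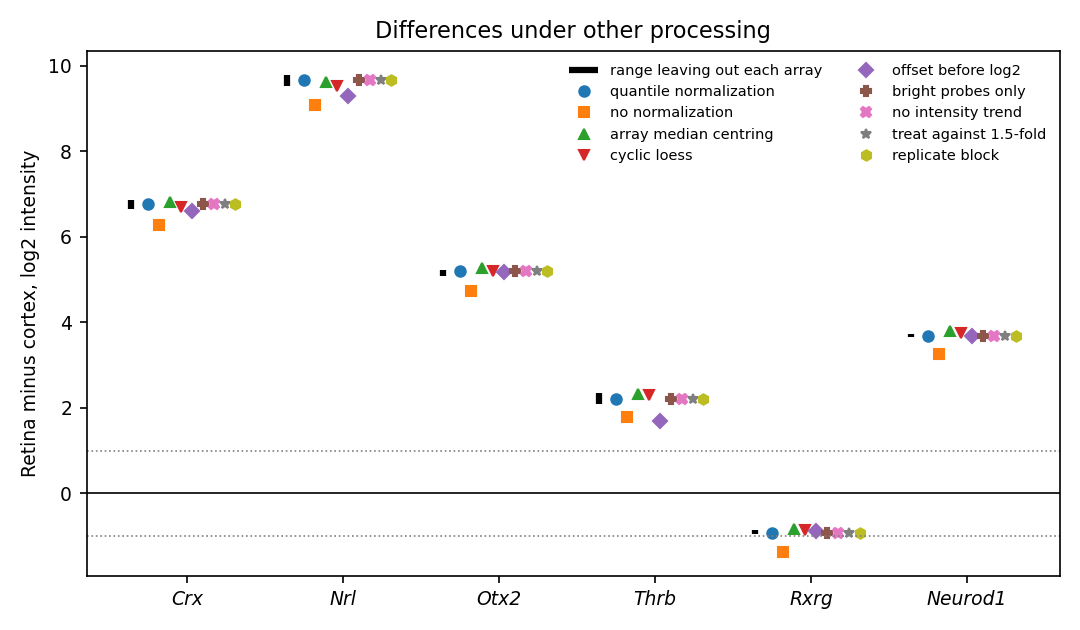
Difference between retina and cortex in log2 intensity (vertical axis) of the 6 fate factor genes under quantile normalization and 8 other processing choices (symbols), with the range over leaving out each array as a black bar and dotted lines at the 2-fold minimum. The symbols of a gene stay close together, those without normalization lie lowest for Crx, Nrl, Otx2, Neurod1 and Rxrg, and only Rxrg crosses a dotted line, at -1.37.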

How the data were processed

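Transcript levels were measured on 10 arrays. Per the labels' protocols, total RNA was extracted with TRIzol and 1 µg was used to make cRNA carrying digoxigenin, which was detected by chemiluminescence. Values are linear intensities, all above 0, as deposited by the authors, whose background correction and normalization are not given in the sources used here. They were put on the log2 scale and quantile-normalized. Retina and cortex, grouped from the sample titles, were compared with limma 3.58.1 in R 4.3.3 (eBayes with an intensity trend, no covariates), fitted over all probes. A simulation with 200 changed probes was used to test the code. The annotation gave 14411 probes a single symbol, 247 several and 18354 none. The brightest probe stood for a gene in lists. Genes were named by rule: every fate factor, and from each list the 5 largest called differences in its main direction and any call against it. Other genes were named as examples after their values were seen. Members and lists were chosen with earlier results of these data known. The number of arrays limits the precision.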

Additional observations from a re-analysis of the deposited data

Results flagged for a closer look

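Dixon's criterion was applied to 98 sets of 5 arrays: the fate factors, the genes named from the lists and the array medians, in each tissue. Genes named only as cell type markers were left out of this check, so an array that stands apart in them is not flagged here. Among the 98 sets, 5 had 1 array far from the other 4, and chance alone marks about 1 in 20. Cortex array 3 had Otx2 at 12.65, where the other 4 cortex arrays had 13.09 to 13.17. On the same array Prph2 was at 10.96 (others 8.78 to 8.91) and Mafa at 9.98 (others 7.89 to 8.43). Neurod4 was at 7.51 on cortex array 5 (others 8.88 to 9.42), and Gnat2 was at 17.23 on retina array 3 (others 17.02 to 17.05). In each of these genes the groups stayed apart with that array included.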

How the results depend on the processing

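Crx, Nrl, Otx2, Thrb and Neurod1 kept their direction and their call under all 18 alternatives. Rxrg kept its direction and was called under 2 of 18, without normalization (-1.37) and against a 1.5-fold minimum (-0.92). Without normalization 2474 probes were called higher and 7621 lower, in place of 3987 and 4392. The number called over all probes was 8379, and 8280 to 8476 on leaving out single arrays. With the replicate block the differences were unchanged (Rxrg -0.92, limma adjusted p = 1.16e-05), no call of a fate factor changed, and 4000 probes were higher and 4398 lower. Deviations of arrays with the same number had correlations of -0.020 to 0.029. For 3 of the 5 retina arrays the best match was the cortex array of the same number. Correlations this small cannot settle whether the numbers pair the arrays. Of the list counts, 398 stayed within 1.5 times of the value given and 18 moved further, 10 of them for the pineal markers. Searching the whole promoter window, start site included, an alternative chosen after the data were seen, left the number of fate factors with each motif at 3, 3, 2 and 2. Values below about 10.74 rest on dim signal, where the arrays limit how well a difference can be sized.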

Other observations

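The chromosomal neighbours of the fate factors were mixed. For each of the 6 measured genes the 2 nearest measured genes on either side were taken from the order of the RefSeq table (GRCm38.p6), giving 24 neighbours. Of these, 7 were higher in retina, 4 were lower and 13 were not called, against 12.1% and 13.3% of all probes. The shares are not like for like, since each neighbour was a named gene read from its brightest probe. In a fit to the 17867 probes brighter than the median in at least 1 tissue, 3414 were called higher and 3774 lower. Thrb lies among other nuclear receptor genes on chromosome 14, between Rarb, a retinoic acid receptor gene (1.15), and Nr1d2, a clock receptor gene, which was at 14.27 in retina and 11.48 in cortex (2.79). Next to Nrl, Cpne6 was higher (1.42) and Pck2 was not called (0.59), and next to Otx2, Tmem260 was higher (1.43) and Ap5m1 was not called (0.49). Of the 4 genes around Crx, Nop53 was higher (1.56), Selenow was lower (-1.25) and Obox6 (-0.80) and Obox3 (-0.39) were not called. Around Neurod1, Ppp1r1c (1.45) and Frzb (2.41) were higher, and Itga4 (0.24) and Ube2e3 (-0.16) were not called. Beside Rxrg, Mgst3 (-1.40), Lmx1a (-1.18) and Nuf2 (-2.83) were lower in retina and Aldh9a1 (0.38) was not called. Of the called neighbours, Lmx1a and Ppp1r1c were dim in both tissues, Nuf2 was dim in retina, and Rarb and Frzb were dim in cortex. The Rarb call did not hold without normalization (0.65). Calls of the other neighbours under other processing were not examined.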
